A study of Mus musculus with 4 samples.

Results

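The BCL-2 family genes that set whether a T cell survives were followed in tumor-infiltrating T cells with and without VISTA, an inhibitory immune receptor encoded by Vsir. The 10 genes were taken by symbol, and all 10 were found among the 32285 genes measured in both libraries. They were Bcl2, Bcl2l1, Mcl1, Bcl2a1b and Bcl2a1d on the survival side, Bcl2l11, Pmaip1 and Bbc3 among the BH3-only genes, and the effectors Bax and Bak1. C57BL/6 mice aged 6 to 8 weeks were inoculated with B16, a mouse melanoma line, and were either Vsir fl/fl CD4-cre (VISTA-KO) or Vsir fl/fl littermates without Cre (WT). CD4-Cre is switched on while T cells develop in the thymus, so that the deletion is aimed at CD4+ as well as CD8+ T cells. Both genotypes received a peptide vaccine on day 3 and anti-CTLA-4 antibody on days 4 and 8 after inoculation, so every value below comes from treated tumors. TILs were taken 18 days after treatment by the account of the study, enrichment and sorting took CD4+ together with CD8+ cells, and each genotype gave 1 10x library. A library pooled 5 to 6 mice by the methods, and 6 to 8 tumors by another passage of the study, and nothing ties a cell to its mouse.

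The intrinsic pathway of apoptosis is decided at the outer mitochondrial membrane. Pro-survival proteins (BCL-2, BCL-XL, MCL-1 and A1) hold the effectors BAX and BAK in check, BH3-only proteins (BIM, NOXA and PUMA) bind and neutralise the pro-survival proteins, and freed effectors form pores that release cytochrome c and start the caspase cascade. In T cells, BCL-2 is maintained by interleukin-7 signaling in naive and memory cells, A1 is induced by antigen receptor signaling through NF-kappa B, MCL-1 is needed at nearly every stage, and BIM removes activated cells when antigen and cytokines wane. PUMA, the product of Bbc3, is induced by p53 after DNA damage and by FOXO factors when growth factors are withdrawn.

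The WT library held 10337 barcodes and 72098984 unique molecular identifiers (UMIs), and the VISTA-KO library held 10085 barcodes and 59916814 UMIs. Requiring 600 detected genes and under 30% mitochondrial UMIs kept 10224 and 9946 cells, and 145 barcode sequences occurred in both libraries. Cells with at least 2 Siglech UMIs were set apart first (221 WT, 138 VISTA-KO), and the others were called CD8 (Cd8a or Cd8b1 detected and no Cd4, 5482 and 4301 cells), conventional CD4 (Cd4 and no Foxp3, 1661 and 2983) or regulatory (Cd4 and Foxp3, 1491 and 1260). Regulatory cells differed in depth, with a median of 8739 UMIs per cell in WT and 5908 in VISTA-KO, and in the share with both Mki67 and Top2a UMIs, 18.04% and 8.17%. The regulatory markers Foxp3, Cd4, Il2ra, Ikzf2, Ctla4 and Tnfrsf18, of which the gate used the first pair, summed to 2825 and 3651 CPM (UMIs of the gene per 1000000 UMIs of the group) there and to between 441 and 1132 CPM in the other kinds. Siglech cells carried the 9 plasmacytoid dendritic cell markers at 13730 and 15813 CPM summed (Siglech itself made the gate), but they also held Cd3e at 401 and 210 CPM, and all but 10 of 221 in WT and 14 of 138 in VISTA-KO also met a T cell gate. Vsir itself was at 112 CPM in both libraries in CD8 cells, 114 and 120 CPM in conventional CD4 cells, 114 and 118 CPM in regulatory cells and 69.5 and 50.3 CPM in Siglech cells. The sources used here do not name the deleted exons and the UMIs may lie outside them, so Vsir checked neither the deletion nor the labels, and WT and VISTA-KO below mean the libraries so labelled.

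A UMI counts 1 molecule whatever the length of its transcript, so CPM of summed UMIs is used here as the level of each gene. With 1 library per genotype there is no test between genotypes. The 95% intervals given with CPM and with ratios are exact for counting error only and leave out the spread between mice. A gene was called past the fold when log2 of the ratio of (CPM + 5) was at least 0.5 in size, among genes that reached 20 CPM in at least 1 library.

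The A1 genes need their sequence beside their values, because Bcl2a1b and Bcl2a1d are near copies on mouse chromosome 9. Their RefSeq start-site windows (GRCm38.p6) aligned over 256 columns, of which 247 were identical, 3 were mismatched and 6 were gaps. The aligned stretch upstream of both annotated starts is printed 5′ to 3′ on the strand of the gene, with the aligned differences that fall in it in capitals. This stretch runs up to the start of Bcl2a1d, at 88731850, but ends short of that of Bcl2a1b, at 89199273. It is shown so that the resemblance of the copies, and the 6 bases found in Bcl2a1b and not in Bcl2a1d, can be read directly.
Bcl2a1b, chr9:89199023-89199228, plus strand: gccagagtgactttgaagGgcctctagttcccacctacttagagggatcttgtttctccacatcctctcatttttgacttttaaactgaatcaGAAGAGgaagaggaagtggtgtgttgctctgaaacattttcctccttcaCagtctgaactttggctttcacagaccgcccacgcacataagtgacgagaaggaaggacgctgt
Bcl2a1d, chr9:88731851-88732050, minus strand: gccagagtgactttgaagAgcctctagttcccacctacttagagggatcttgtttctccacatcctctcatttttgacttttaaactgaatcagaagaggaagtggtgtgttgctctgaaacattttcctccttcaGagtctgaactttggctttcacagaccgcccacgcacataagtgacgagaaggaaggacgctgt
Reads that fall where the copies are identical cannot be given to either with certainty. The windows were aligned and the transcripts were not, so their likeness was not measured. The split of UMIs between Bcl2a1b and Bcl2a1d is therefore taken as uncertain throughout. Their sum with Bcl2a1a and Bcl2a1c is given beside them for the ratios between the libraries in the T cell kinds and CD8 states.

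The FOXO core TGTTTAC was searched on both strands in the start-site windows of the 9 members that had one, 14 windows of 300 bases in all. It occurred in 2 of the 14, in Bcl2l11 and Bbc3, against 3.65% of all 32851 windows. Both matches are shown, with the core in capitals, because Bcl2l11 and Bbc3 are the BH3-only genes textbooks name as FOXO targets.
Bcl2l11, chr2:128125800-128125829, plus strand: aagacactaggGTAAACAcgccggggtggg
Bbc3, chr7:16310083-16310112, plus strand: tctggcgggttTGTTTACaaacaatggggt
In Bcl2l11 the core lies on the opposite strand. Bbc3 has 3 annotated starts, and the match precedes 1 of them. TGANTCA, the AP-1 core, occurred in 2 of the 14 windows, those of Bcl2a1b and Bcl2a1d (7.81% of all windows). A kappa B consensus occurred in 4 (Bcl2l11, Bcl2l1, Mcl1 and Bbc3; 4.79% of all windows), and the NR4A element AAAGGTCA in 0 (1.51% of all windows). A match is a description of letters, and the absence of one says nothing of the factor.

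Bbc3 was the member that differed most between the libraries in each of the 3 T cell kinds. The gene lies at chromosome 7, 16308398 to 16318334 (GRCm38.p6). In CD8 cells it stood at 29.7 CPM in WT against 14.9 in VISTA-KO (1093 and 415 UMIs), a ratio of 0.4996 (0.445 to 0.560). In conventional CD4 cells it stood at 38.9 and 17.5 CPM, a ratio of 0.449 (0.382 to 0.526). Regulatory cells held 28.3 and 21.4 CPM, a ratio of 0.756 (0.639 to 0.892) that did not reach the fold. Siglech cells held 32.0 and 30.1 CPM, with an interval that spanned 1 (0.633 to 1.37). Bbc3 was thus lower in VISTA-KO by more than counting error in the 3 T cell kinds, and past the fold in CD8 and conventional CD4 cells.

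In CD8 cells Bbc3 was the only member past the fold, against 1.86% of the 6065 genes tested in either direction and 0.709% in the lower one. It was also the only member past it in conventional CD4 cells, against 2.87% of 6261 genes in either direction and 1.47% in the lower one. Genes as low as Bbc3 or lower numbered 23 in CD8 cells and 26 in conventional CD4 cells, 0.379% and 0.415% of those tested. In regulatory cells 317 genes (5.05%) were as low or lower, and 0 of 10 members passed the fold, where 5.21% of genes did.

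The share of cells with a Bbc3 UMI moved with the level. After every cell was thinned to 2000 UMIs, 6.35% of WT and 2.90% of VISTA-KO CD8 cells had one (intervals 5.71% to 7.05% and 2.40% to 3.45%), leaving out 290 and 186 shallower cells. In conventional CD4 cells the thinned shares were 8.49% and 3.35%, and in regulatory cells 6.10% and 4.47%. Unthinned shares were 15.1% and 8.04% in CD8, 17.1% and 7.84% in conventional CD4 and 23.9% and 13.5% in regulatory cells. Bbc3 was found in every kind here, so no kind could serve as one that lacks it, and no background share from free RNA was measured. Summed melanoma transcripts (Pmel, Mlana, Tyrp1, Dct and Tyr) were at 10.6 CPM in WT and 203 in VISTA-KO in CD8 cells, but at 231 and 16.1 CPM in conventional CD4 cells. Whether free RNA had a part in the Bbc3 values was not tested. CD8 transcripts were higher in the WT cells gated as CD4+, with Cd8a at 379 CPM in WT and 187 in VISTA-KO and Cd8b1 at 514 and 253 CPM in conventional CD4 cells, and 337 and 156, and 511 and 230 CPM, in regulatory cells. In conventional CD4 cells free of both (1164 WT, 2396 VISTA-KO), Bbc3 stood at 49.0 and 17.7 CPM. All conventional CD4 cells held it at 38.9 and 17.5 CPM. Whether CD8 transcripts had a part in the difference was not tested.

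**Figure D1:**
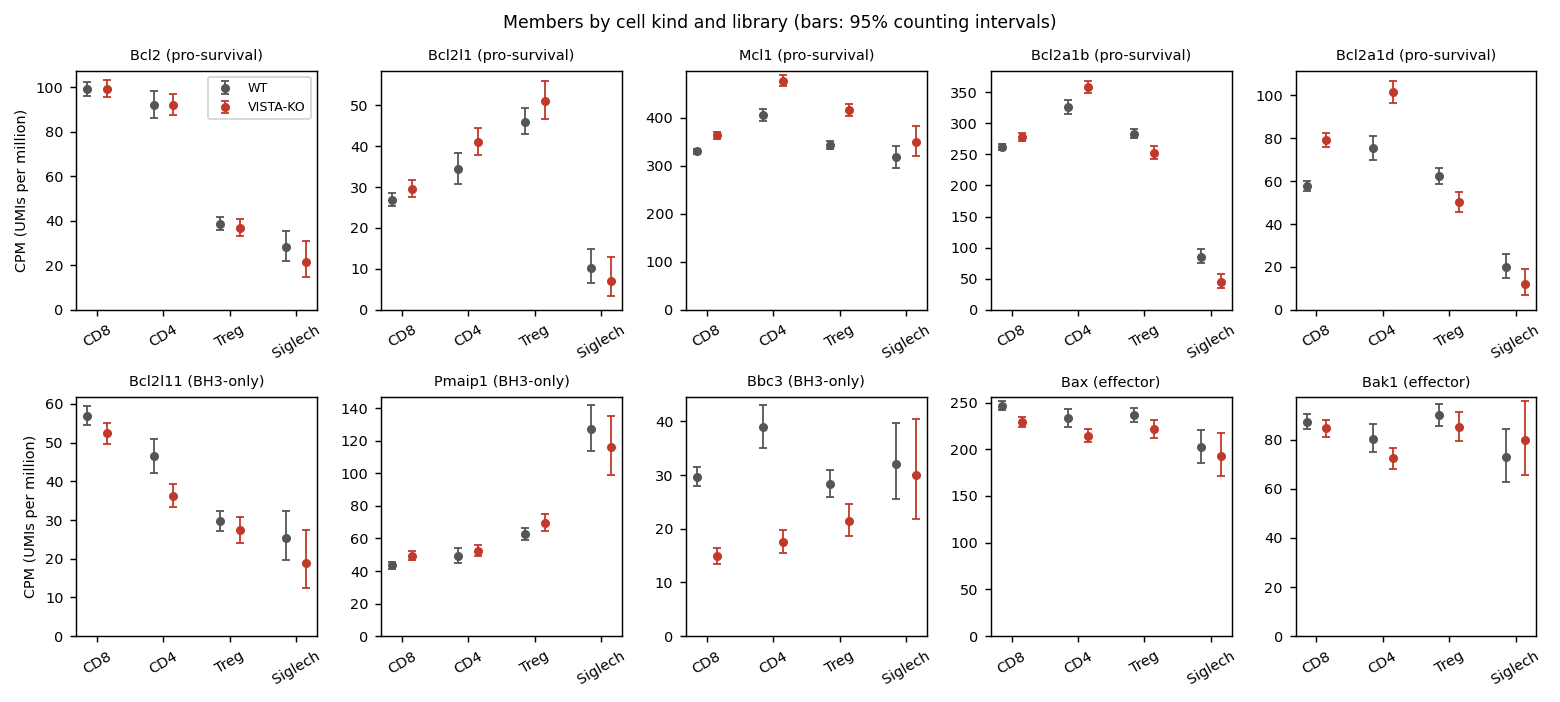
Each of the 10 panels plots 1 member in CPM (vertical axis) in the CD8, conventional CD4, regulatory and Siglech cells of the WT and VISTA-KO libraries, 1 point per library, with bars for the exact 95% Poisson interval, which covers counting error only. Bbc3 is lower in VISTA-KO in CD8 (29.7 to 14.9) and conventional CD4 cells (38.9 to 17.5), while Bcl2 is level between the libraries in those kinds and lower in regulatory and Siglech cells of both.

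Dividing the CD8 cells by state showed where this difference lay. States were assigned by first match: dividing (Mki67 and Top2a), Havcr2 Pdcd1 (both inhibitory receptors), Tcf7 Pdcd1, Ccr7, Il7r, Cx3cr1 or S1pr5, and all other CD8 cells. These are gates on single UMIs, so deeper cells enter the earlier states more easily. WT medians ran from 16192 UMIs per cell in the dividing state and 8700 in the Havcr2 Pdcd1 state to 3948 in the Cx3cr1 or S1pr5 state. The state named Il7r holds only cells with no call above it, and Il7r is therefore no finding there.

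Bbc3 was lower in VISTA-KO in each of the 7 states, and past the fold in the 6 that were tested. The Ccr7 state, which gathers cells with a lymph-node homing receptor, held 59.3 CPM in WT and 24.0 in VISTA-KO, a ratio of 0.405 (0.298 to 0.544). The Il7r state held 55.2 and 18.04 CPM, a ratio of 0.327 (0.238 to 0.443). The Tcf7 Pdcd1 state held 32.5 and 10.7 CPM, a ratio of 0.330 (0.213 to 0.496). The states with the most Bbc3 in WT were thus the Ccr7 and Il7r states. The Havcr2 Pdcd1 state held 24.2 and 11.2 CPM, a ratio of 0.461 (0.335 to 0.628). In the Cx3cr1 or S1pr5 state the levels were 30.3 and 15.5 CPM, from 62 and 13 UMIs (ratio 0.512, 0.258 to 0.942). The remaining CD8 cells held 28.4 and 16.4 CPM. The dividing state was lowest in WT, at 14.9 CPM against 11.8 CPM in VISTA-KO, under the minimum of 20 CPM. Its ratio of 0.791 had an interval of 0.576 to 1.08. The share of genes past the fold downward was 2.55% in the Ccr7, 2.49% in the Il7r, 2.21% in the Tcf7 Pdcd1, 2.12% in the Havcr2 Pdcd1, 6.31% in the Cx3cr1 or S1pr5 and 0.95% in the other CD8 cells.

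The states themselves differed in size between the libraries, the Ccr7 state making up 7.66% of WT and 11.6% of VISTA-KO CD8 cells and the Il7r state 10.9% and 14.8%. With the VISTA-KO states weighted as in WT, a calculation chosen after seeing the data, Bbc3 stood at 29.7 CPM in WT and 14.4 in VISTA-KO. Unweighted, VISTA-KO stood at 14.9 CPM. The weights cover only these gates, and whether state composition had a part in the difference was not tested. Conventional CD4 cells with Ccr7 showed 49.1 and 18.9 CPM (ratio 0.384), and those without it 36.6 and 17.1 CPM (ratio 0.469). Regulatory cells with Itgae, an integrin of tissue-resident cells, showed 28.8 and 22.1 CPM (ratio 0.766), and those without it 27.9 and 20.9 CPM (ratio 0.750).

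**Figure D2:**
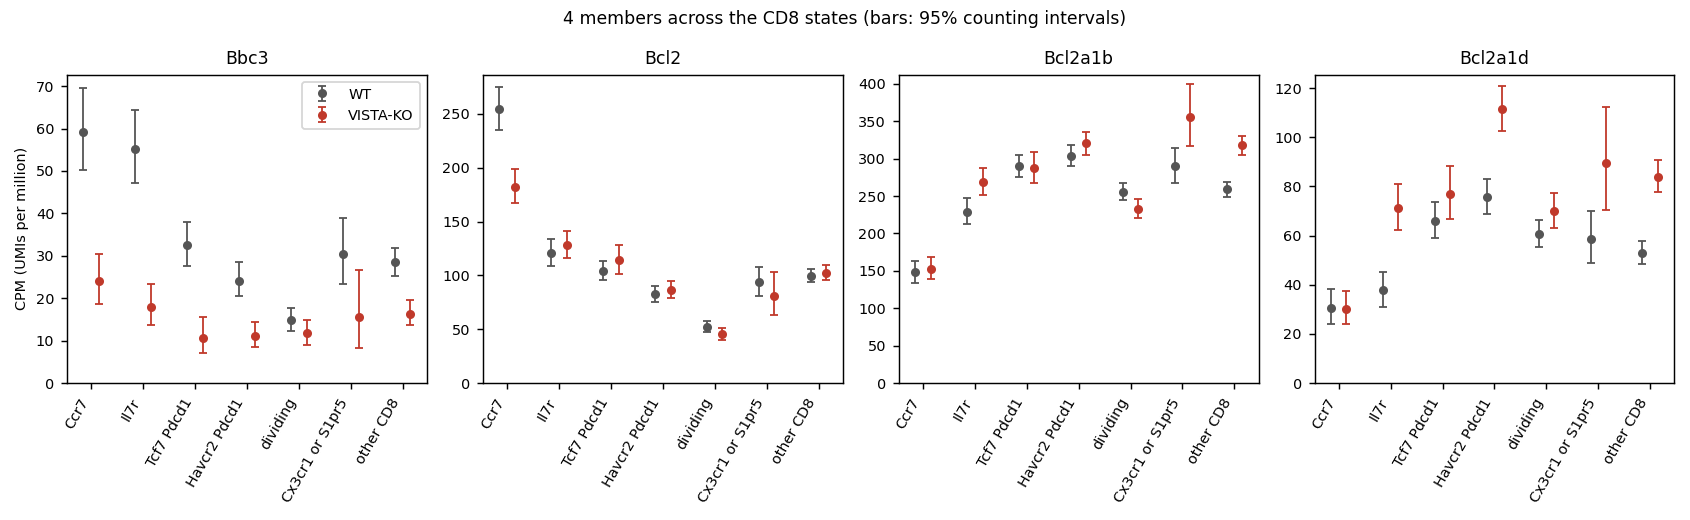
The 4 panels plot the CPM (vertical axis) of Bbc3, Bcl2, Bcl2a1b and Bcl2a1d in the 7 CD8 states for the WT and VISTA-KO libraries, 1 point per library, with exact 95% Poisson intervals. Bbc3 lies lower in VISTA-KO in every state, from 59.3 against 24.0 CPM in the Ccr7 state to 14.9 against 11.8 CPM in the dividing state, and Bcl2 peaks in the Ccr7 state of both libraries.

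The T cell receptor sequences allowed the same comparison by size of clone. Clonotypes were ranked in each library on its own, so those of the same rank were not matched by receptor. CD8 cells whose receptor was seen in 1 cell held Bbc3 at 44.1 CPM in WT and 17.3 in VISTA-KO, and those of clonotypes with 2 to 20 cells at 27.3 and 13.9 CPM. The largest clonotype of each library, with 1034 WT and 291 VISTA-KO CD8 cells, held 32.4 and 12.8 CPM. In the second clonotypes in size, 318 and 147 CD8 cells, the levels were 16.0 and 12.6 CPM with intervals that overlapped (11.1 to 22.3 and 7.36 to 20.2). Whether the libraries stood further apart at 1 rank than at another was not tested. The third clonotypes held 18.6 and 8.04 CPM, from 19 and 6 UMIs. Without the largest clonotypes the remaining CD8 cells held Bbc3 at 29.3 and 15.04 CPM, close to the 29.7 and 14.9 CPM of all CD8 cells. Bcl2 was at 192 CPM in WT and 133 in VISTA-KO in cells of receptors seen once, and at 50.4 and 57.8 CPM in the largest clonotype. Bcl2a1d ran the other way, at 38.2 and 64.5 CPM in receptors seen once and 59.4 and 77.7 CPM in the largest clonotype. The second clonotypes in size held Bcl2a1d at 75.2 and 100.3 CPM. The sum of the A1 copies was not taken by clonotype.

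**Figure D3:**
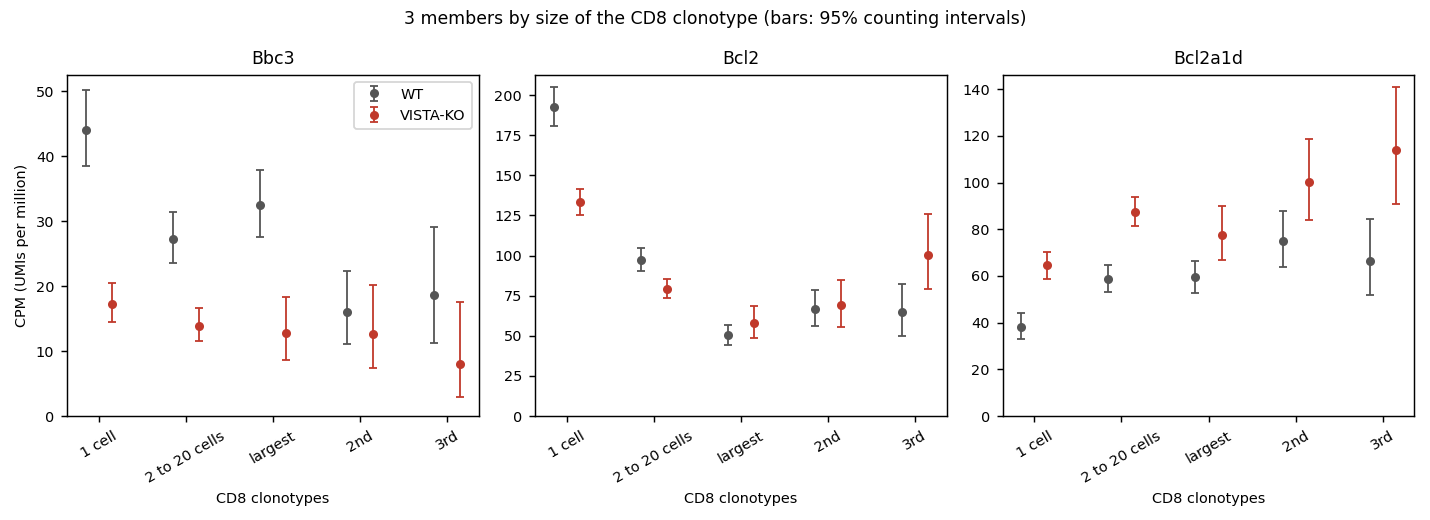
The 3 panels plot the CPM (vertical axis) of Bbc3, Bcl2 and Bcl2a1d in CD8 cells grouped by the size of their clonotype (seen in 1 cell, in 2 to 20 cells, and the 3 largest clonotypes of each library), with exact 95% Poisson intervals. Bbc3 is lower in VISTA-KO in every group, 44.1 against 17.3 CPM in receptors seen once, and among the groups plotted Bcl2 is highest in receptors seen once.

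Among the pro-survival members, Bcl2, at chromosome 1, 106538176 to 106714290, was level between the libraries in CD8 cells (99.2 CPM in WT, 99.3 in VISTA-KO, ratio 1.00, 0.953 to 1.05) and in conventional CD4 cells (92.2 and 92.1 CPM). Its largest difference among the CD8 states was in the Ccr7 state, at 254 and 182 CPM (ratio 0.718, 0.637 to 0.808), short of the fold. Mcl1, whose protein turns over within hours, was the most abundant member in each kind of both libraries. It stood at 330 and 363 CPM in CD8 cells (ratio 1.10, 1.07 to 1.13), 405 and 477 CPM in conventional CD4 cells (1.18, 1.13 to 1.23) and 343 and 416 CPM in regulatory cells (1.21, 1.16 to 1.26). Mcl1 was therefore higher in VISTA-KO by more than counting error in the 3 T cell kinds, but never past the fold. Bcl2l1, the gene of BCL-XL, stood at 26.9 and 29.5 CPM in CD8 cells, 34.3 and 41.0 CPM in conventional CD4 cells and 46.0 and 51.0 CPM in regulatory cells.

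The A1 genes did not move one way in all kinds. Bcl2a1d, at chromosome 9, 88723288 to 88731850, stood at 57.7 CPM in WT and 79.1 in VISTA-KO in CD8 cells, a ratio of 1.37 (1.29 to 1.46), and at 75.3 and 101 CPM in conventional CD4 cells, a ratio of 1.35 (1.23 to 1.47). In regulatory cells it was lower in VISTA-KO, at 62.3 and 50.1 CPM (0.804, 0.720 to 0.896). None of the 3 reached the fold, and that the ratios differ between kinds was not tested. Bcl2a1b, at chromosome 9, 89199273 to 89207838, took the same directions with smaller ratios, 261 and 278 CPM in CD8 cells (1.06), 326 and 358 CPM in conventional CD4 cells (1.10) and 283 and 252 CPM in regulatory cells (0.890, 0.848 to 0.935). A sum over the 4 A1 copies does not depend on how the counted UMIs were split between them, but cannot recover reads that were not counted. Its ratio was 1.12 (1.09 to 1.15) in CD8, 1.15 (1.11 to 1.20) in conventional CD4 and 0.874 (0.836 to 0.914) in regulatory cells. Within conventional CD4 cells the summed ratio was 0.881 (0.791 to 0.981) in those with Ccr7 and 1.20 (1.15 to 1.25) in the others. The share of A1 UMIs given to Bcl2a1d was 17.9% in WT and 21.9% in VISTA-KO in CD8 cells, and 17.9% and 16.4% in regulatory cells.

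Within the CD8 states Bcl2a1d passed the fold upward in 4 of 7, by the uncertain split of UMIs between the copies. The Il7r state held 37.7 and 71.2 CPM (ratio 1.89, 1.502 to 2.39, with 1.7% of genes past the fold upward). The Havcr2 Pdcd1 state held 75.7 and 111 CPM (1.47, 1.30 to 1.67, 1.6% of genes). The Cx3cr1 or S1pr5 state held 58.7 and 89.7 CPM (1.53, 1.13 to 2.05, 5.03% of genes), and the other CD8 cells 53.0 and 84.0 CPM (1.58, 1.41 to 1.78, 1.58% of genes). In the Ccr7 state the libraries were at 30.6 and 30.2 CPM (0.985, 0.713 to 1.36), in the Tcf7 Pdcd1 state at 66.0 and 76.9 CPM (1.17), and in the dividing state at 60.9 and 70.0 CPM (1.15). The summed A1 ratio, which does not depend on that split, was 1.28 (1.17 to 1.40) in the Il7r state and 1.14 (1.08 to 1.21) in the Havcr2 Pdcd1 state. It was 1.28 (1.13 to 1.46) in the Cx3cr1 or S1pr5 state and 1.29 (1.23 to 1.36) in the other CD8 cells. The Ccr7 state had 1.01, the Tcf7 Pdcd1 state 1.03 and the dividing state 0.962 (0.904 to 1.02). The sum thus reached the fold in no state.

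The other BH3-only members moved less than Bbc3. Bcl2l11, the gene of BIM, stood at 56.9 CPM in WT and 52.4 in VISTA-KO in CD8 cells (ratio 0.920, 0.860 to 0.984). In conventional CD4 cells it was at 46.5 and 36.2 CPM (0.780, 0.687 to 0.885). With stricter gates, which take only cells free of Cd8a and Cd8b1 UMIs as conventional CD4, it was at 37.5 and 33.4 CPM, a log2 ratio of -0.15 that did not exceed counting error. Bcl2l11 was lower in VISTA-KO in 6 of the 7 CD8 states, but by more than counting error in only 2. Its lowest ratio was 0.697 (0.552 to 0.878), in the Il7r state, while the Havcr2 Pdcd1 state stood at 67.1 and 77.1 CPM, a ratio of 1.15. Pmaip1, the gene of NOXA, which binds MCL-1 and A1, stood at 43.5 and 49.5 CPM in CD8 cells (1.14, 1.06 to 1.22), 49.5 and 52.5 CPM in conventional CD4 cells and 62.8 and 69.5 CPM in regulatory cells. In Ccr7+ conventional CD4 cells, 3 members were lower past the fold (Bbc3, Bcl2l11 at 61.0 and 41.5 CPM, and Bak1 at 67.5 and 45.5 CPM), where 6.05% of genes were.

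Bax and Bak1, the effectors, were close between the libraries in each T cell kind. Bax stood at 247 and 229 CPM in CD8 cells (ratio 0.929, 0.900 to 0.959), 233 and 215 CPM in conventional CD4 cells and 237 and 222 CPM in regulatory cells. It was lower in VISTA-KO in 7 of 7 CD8 states, with ratios of 0.877 to 0.989, but by more than counting error in only 2. The share of all genes lower in every state was not counted. Bak1 stood at 87.3 and 84.5 CPM in CD8 cells, 80.4 and 72.4 CPM in conventional CD4 cells (0.900, 0.821 to 0.988) and 89.9 and 85.3 CPM in regulatory cells. Its lowest ratio among the CD8 states was 0.791 (0.661 to 0.943) in the Tcf7 Pdcd1 state.

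Added up by role, the pro-survival genes took 62.5% of member UMIs in WT and 66.4% in VISTA-KO CD8 cells, and 67.5% and 73.1% in conventional CD4 cells. BH3-only genes took 10.5% and 9.12% in CD8 and 9.77% and 7.26% in conventional CD4 cells, and effectors 27.0% and 24.5% in CD8 and 22.7% and 19.6% in conventional CD4 cells. Regulatory cells were nearer each other, with pro-survival shares of 63.4% and 65.4%. Over the 10 members the median log2 ratio was 0.04 in CD8, 0.04 in conventional CD4 and -0.08 in regulatory cells, beside -0.03, -0.04 and -0.01 over all genes tested.

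**Figure D4:**
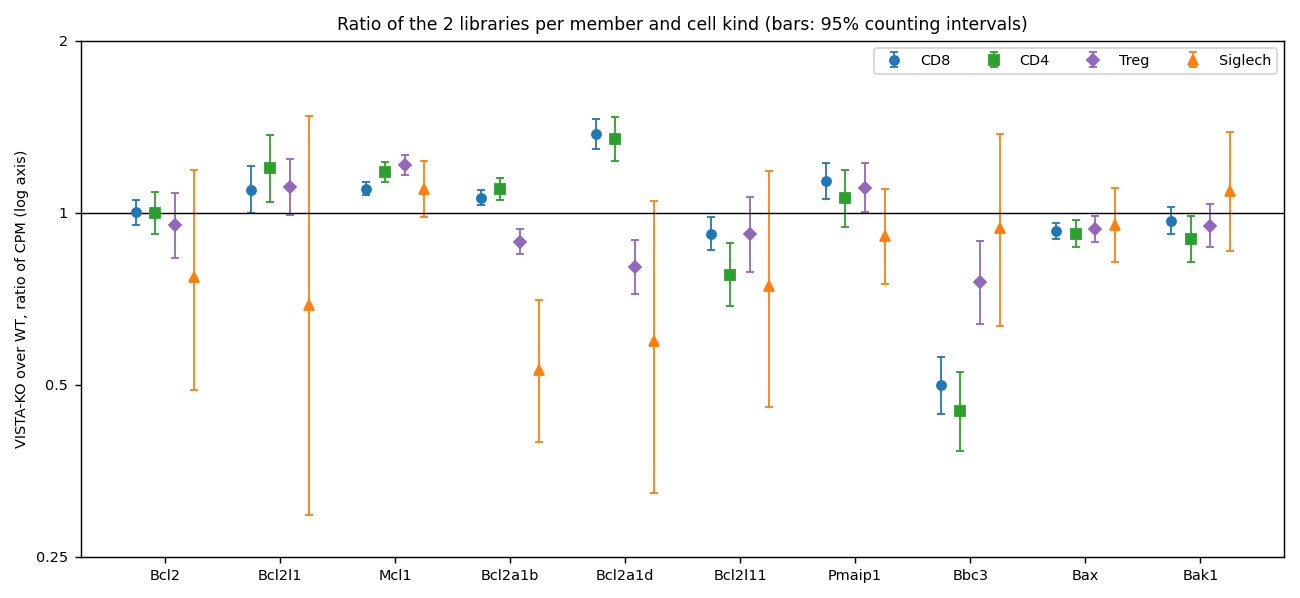
The plot gives the VISTA-KO over WT ratio of CPM on a log axis for each member in the 4 kinds of cell, with exact 95% intervals for counting error and a line at a ratio of 1. Bbc3 lies lowest in CD8 (0.4996) and conventional CD4 cells (0.449), and Bcl2a1d lies above 1 in those kinds (1.37 and 1.35) and below it in regulatory cells (0.804).

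Kinds of cell could be tested against each other, because each library held all of them. The edgeR quasi-likelihood test was run on UMIs summed per library and kind with the library as a block, over 12602 genes. A call needed a Benjamini-Hochberg adjusted p below 0.05 and a log2 difference of at least 0.5. The spread in this test is how a difference between kinds varies between 2 pools of different genotype, not between mice.

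Regulatory cells had less Bcl2 and less Bcl2l11, and more Bcl2l1, than CD8 cells. Bcl2 stood at 38.7 and 36.8 CPM in regulatory cells of WT and VISTA-KO, against 99.2 and 99.3 CPM in CD8 cells (log2 difference -1.45, SE 0.08, edgeR adjusted p = 0.000128). Bcl2l11 stood at 29.8 and 27.3 CPM against 56.9 and 52.4 (-0.99, SE 0.09, edgeR adjusted p = 0.000695). Bcl2l1 was higher, at 46.0 and 51.0 CPM against 26.9 and 29.5 (0.73, SE 0.10, edgeR adjusted p = 0.00368). So 3 of 10 members were called, beside 12.7% of all genes. For these 3 genes the 2 regulatory values lay on one side of both CD8 values.

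Against conventional CD4 cells, regulatory cells again had less Bcl2 (log2 difference -1.29, SE 0.08, edgeR adjusted p = 0.000639) and less Bcl2l11 (-0.53, SE 0.09, edgeR adjusted p = 0.0129), 2 of 10 members beside 8.31% of genes. The Bcl2l11 call did not hold without the block (-0.53, edgeR adjusted p = 0.0644), with stricter gates (-0.37, edgeR adjusted p = 0.0746) or without Mki67 or Top2a cells (-0.38, edgeR adjusted p = 0.0213, under the fold). That last setting, chosen after seeing the data, added calls of Bcl2a1d (-0.72) and Pmaip1 (0.54) here, and of Pmaip1 (0.66) for regulatory over CD8 cells. Between conventional CD4 and CD8 cells edgeR called 0 members, beside 5.56% of genes, and DESeq2 called 0. An unadjusted edgeR p below 0.05 was reached by 5 members, and the share of all genes at that threshold was not counted. The nearest to a call was Bcl2l11, at -0.46 (edgeR adjusted p = 0.0253), below the fold. With stricter gates it was called lower in conventional CD4 cells, at -0.68 (edgeR adjusted p = 0.00734).

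Siglech cells had a different balance, with more Pmaip1 and less of 5 other members than CD8 cells, 6 of 10 beside 38.6% of all genes. Pmaip1 stood at 127 and 116 CPM in the WT and VISTA-KO Siglech cells, above its level in each T cell kind (log2 difference over CD8 1.41, SE 0.09, edgeR adjusted p = 2.35e-05). Bcl2, at 28.1 and 21.7 CPM, was lower (-1.96, SE 0.11, edgeR adjusted p = 1.19e-05). So were Bcl2a1b (-1.98), Bcl2a1d (-1.98), Bcl2l1 (-1.63) and Bcl2l11 (-1.28), with edgeR adjusted p from 0.000158 to 0.00203. Mcl1 stood at 318 and 350 CPM, a log2 difference of -0.05 from CD8 cells (edgeR adjusted p = 0.562). BH3-only genes took 20.1% and 18.9% of member UMIs in Siglech cells.

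Between the libraries, Bcl2a1b was the only 1 of 8 tested members past the fold in Siglech cells, at 85.5 CPM in WT and 45.4 in VISTA-KO (ratio 0.531, 0.396 to 0.704), where 9.04% of genes were past it in either direction and 5.31% in the lower one. The T cell transcript Cd3e moved with it, at 401 and 210 CPM. In the Siglech cells with no Cd3e, Cd3d or Cd3g UMI (127 WT, 96 VISTA-KO), a subset chosen after seeing the data, Bcl2a1b had 3 and 4 UMIs (2.86 and 4.67 CPM), too few to compare. In that subset Pmaip1 was at 146 and 119 CPM, Mcl1 at 331 and 353 CPM and Bcl2 at 12.4 and 11.7 CPM. The same 6 members were called against CD8 cells by edgeR, Pmaip1 at a log2 difference of 1.47 and Bcl2a1b at -6.24.

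The CD8 states were compared by the same test over 10885 genes, each against the Havcr2 Pdcd1 state. Ccr7 cells had more Bcl2 and more Bbc3, and less of both A1 genes, Bak1 and Pmaip1, 6 of 10 members beside 24.6% of all genes. Bcl2 stood at 254 and 182 CPM in the Ccr7 state of WT and VISTA-KO and at 82.7 and 86.6 CPM in the Havcr2 Pdcd1 state (log2 difference 1.49, SE 0.13, edgeR adjusted p = 4.05e-07). Bbc3 stood at 59.3 and 24.0 CPM against 24.2 and 11.2 (1.35, SE 0.22, edgeR adjusted p = 0.000302). So the gene of an inhibitor of death and that of a BH3-only killer were higher together in the same state. Bcl2a1d stood at 30.6 and 30.2 CPM against 75.7 and 111 (-1.49, SE 0.18, edgeR adjusted p = 1.36e-05). Bcl2a1b (-0.93), Bak1 (-0.93) and Pmaip1 (-0.59) were lower with edgeR adjusted p from 7.70e-06 to 0.00437. Without the block the Bbc3 difference kept its size, 1.34, but was not called (edgeR adjusted p = 0.100).

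The Il7r state also had more Bbc3 and Bcl2 and less Bcl2a1d and Bak1 than the Havcr2 Pdcd1 state, and less Bcl2l11. Bbc3 was higher by 1.00 (SE 0.22, edgeR adjusted p = 0.00387) and Bcl2 by 0.55 (edgeR adjusted p = 0.00528). Bcl2a1d (-0.79), Bcl2l11 (-0.55) and Bak1 (-0.53) were lower with edgeR adjusted p from 0.00121 to 0.00726. That made 5 of 10 members beside 16.7% of genes. Without the block Bbc3 (1.02, edgeR adjusted p = 0.241) and Bcl2a1d (-0.78, edgeR adjusted p = 0.100) kept their size but were no longer called.

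Dividing cells had less Bcl2, 52.5 and 45.6 CPM (-0.79, SE 0.13, edgeR adjusted p = 0.000319), and less Bcl2l11, 46.4 and 44.6 CPM against 67.1 and 77.1 (-0.68, SE 0.12, edgeR adjusted p = 0.000658), 2 of 10 beside 17.6% of genes. For the Tcf7 Pdcd1 state edgeR called 0 members beside 11.6% of genes, and DESeq2 called 0. An unadjusted edgeR p below 0.05 was reached by 7 members, and the share of all genes at that threshold was not counted here either.

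**Figure D5:**
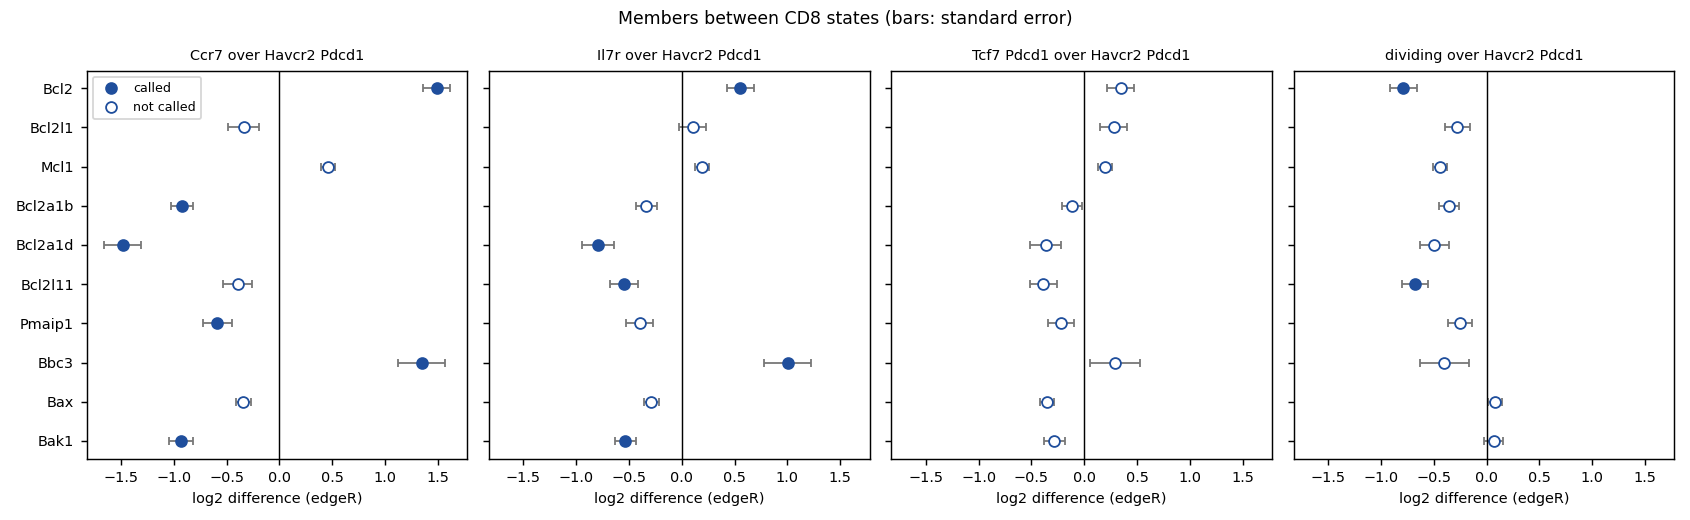
The plot gives the log2 difference (horizontal axis, with 1 SE) of each member between a CD8 state and the Havcr2 Pdcd1 state in the edgeR fit, with filled points for calls. In the Ccr7 state Bcl2 (1.49) and Bbc3 (1.35) lie highest and Bcl2a1d (-1.49) lowest, and 0 members are filled for the Tcf7 Pdcd1 state.

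The rest of the pathway was read from 4 lists: 16 other BCL-2 family genes, 17 genes of the apoptosome, caspases and their inhibitors, 11 death receptors and relays, and 19 upstream inputs. In CD8 cells 0 of the 5, 14, 9 and 19 genes tested were past the fold between the libraries, beside 1.86% of all genes. Of 4, 13, 9 and 19 in conventional CD4 cells, 0, 0, 1 and 1 were higher and 0, 2, 0 and 0 lower (2.87% of genes). Of 6, 14, 9 and 18 in regulatory cells, 0, 1, 0 and 2 were higher and 0, 1, 0 and 0 lower (5.21%). Of 6, 12, 7 and 18 in Siglech cells, 0, 1, 1 and 2 were higher and 1, 1, 0 and 1 lower (9.04%). In conventional CD4 cells Cdkn1a, the p53 target p21, was higher in VISTA-KO, at 47.2 and 76.1 CPM (ratio 1.61, 1.45 to 1.80), and Fasl, the ligand of the Fas death receptor, at 133 and 199 CPM (1.496, 1.40 to 1.60). In regulatory cells Il2ra, the high-affinity subunit of the interleukin-2 receptor, stood at 136 and 204 CPM, and Birc3, a caspase and NF-kappa B regulator, at 70.4 and 107 CPM. In Siglech cells Il2rb (166 and 81.8 CPM) and Birc5 (23.4 and 8.39 CPM) were lower, and Rel (75.8 and 118 CPM) and Tnfrsf1a (49.6 and 73.4 CPM) were higher. Bcl2l13, at 22.7 and 14.0 CPM there, had an interval that spanned 1. These genes were each named for the kind with their largest difference. Birc5 was also lower past the fold in conventional CD4 (63.8 and 33.3 CPM) and regulatory cells (113 and 55.3 CPM). The share of cells with both Mki67 and Top2a UMIs differed there too. It was 6.02% and 4.39% in conventional CD4, 18.04% and 8.17% in regulatory and 5.43% and 3.62% in Siglech cells. In CD8 cells Birc5 stood at 89.2 and 102 CPM and that share at 8.15% and 8.72%. The part of dividing cells in the Birc5 values was not tested. Birc3 was also higher past it in Siglech cells (61.7 and 91.6 CPM).

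Between the Ccr7 and Havcr2 Pdcd1 states, 9 list genes were called higher and 11 lower, beside 24.6% of all genes called in either direction. By list that was 0 higher and 1 lower of 11 tested other family genes, 2 and 4 of 17 apoptosome genes, 2 and 4 of 11 death receptor genes and 5 and 2 of 19 upstream inputs. Among those higher in the Ccr7 state were Il7r, the interleukin-7 receptor (log2 difference 3.53), Foxo1 (1.04), Stat5a (0.82) and Stat5b (0.80), together with Tnfrsf10b (1.76) and Endog (1.12). Among those lower were the caspase inhibitor Birc5 (-1.90), Fasl (-1.49), Il2rb (-1.17), Tnfrsf1b (-1.15) and Bnip3 (-1.06), with edgeR adjusted p from 3.41e-08 to 0.00619 over the genes named here. Foxo1 stood at 170 and 149 CPM in the Ccr7 state and 77.4 and 92.1 CPM in the Havcr2 Pdcd1 state. Tnfrsf10b was scarce in both, at 5.17 and 11.6 CPM against 2.15 and 3.21 CPM. These levels lie under the 20 CPM asked of genes compared between the libraries.

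Across 24 profiles of state or kind by library and 8006 genes, the genes closest to 7 of the members were listed as a description, since the profiles share 2 libraries. Bbc3, Bax and Bak1 were not searched. The profiles included the Siglech cells of each library beside the T cells. How far the r values rest on the difference between Siglech cells and T cells was not tested. Bcl2 was most like Rps10 and Rps13 (Pearson r 0.94 each) and Ms4a4c (0.92). Bcl2a1b was most like Zap70, Lcp2 and Cotl1 (0.95 to 0.96), Bcl2a1d like Myl6 (0.91), Wrnip1 and Myl12a (0.89 each), and Bcl2l1 like Ttc39c, Cd2 and Gata3 (0.94 to 0.96). Mcl1 was most like Clint1 (0.93), Clk1 (0.91) and Stk4 (0.89), Bcl2l11 like Rpl27 (0.87), Pde3b and B4galnt1 (0.86 each), and Pmaip1 like Gmppb and Sec24d (0.93 each) and Rps6ka1 (0.92).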

How the data were processed

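The authors deposited whole-number UMI counts per gene and cell for 1 WT and 1 VISTA-KO library (Cell Ranger 5.0.0 per the file headers; Seurat 4 is named in the submitters' notes) and receptor contigs for both, read here as clonotypes. The label protocol names 3′ chemistry, whereas the label description and the methods name 5′ libraries. Members, lists, gates and tests were chosen with earlier results of these data known. UMIs were summed per library and kind or CD8 state, with cells of 2 or more beta chains, possible doublets, kept (405 WT, 558 VISTA-KO) and removed in an alternative. Intervals were exact Poisson, Clopper-Pearson (shares) and conditional binomial (ratios). edgeR 4.0.16 (R 4.3.3) gave the tests, with SE as the log2 difference over the root of F, and DESeq2 1.42.0 an alternative. The tests were also run on simulated counts with no difference between the libraries. Those counts cannot show how the tests behave with pools of different genotype. All 10 members were named. Other genes were named only if a list gene was past the fold between the libraries, among the 6 largest calls each way between the Ccr7 and Havcr2 Pdcd1 states, or among the 3 most like a member. One gene that met this rule is not reported here. Sequences came from RefSeq start-site windows of GRCm38.p6, and none is printed for Pmaip1. The alternatives were other pseudocounts, minimums, folds, gates, thinning depths, cell filters, weights and tools.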

Additional observations from a re-analysis of the deposited data

Results flagged for a closer look

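The A1 genes had ratios between the libraries on opposite sides of 1 in different kinds of cell, and the difference between kinds was not tested. The VISTA-KO over WT ratio of Bcl2a1b was 1.06 in CD8, 1.10 in conventional CD4, 0.890 in regulatory and 0.531 in Siglech cells. Siglech cells also held the T cell transcript Cd3e, at 401 CPM in WT and 210 in VISTA-KO. Those with no Cd3e, Cd3d or Cd3g UMI had only 3 and 4 Bcl2a1b UMIs, too few to compare. The part of T cell RNA in the Siglech ratio was not tested. That of Bcl2a1d was 1.37 in CD8, 1.35 in conventional CD4 and 0.804 in regulatory cells. Regulatory cells also differed in depth, with medians of 8739 and 5908 UMIs, and the part of depth in these ratios was not tested. Without cells that had a Mki67 or Top2a UMI the log2 ratios in regulatory cells were -0.26 for Bcl2a1b and -0.47 for Bcl2a1d, against -0.16 and -0.29 with them, so they were larger without those cells.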

How the results depend on the processing

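Of 1000 alternative values for single members, 958 were counted as unchanged. Ratios between the libraries so counted kept their direction and their side of the threshold or moved by less than counting error. Tests between kinds or states so counted kept their call or lack of one. A change of sign was passed over there if neither fit called the gene. Some alternatives left the counts of a comparison as they were. Taking only Siglech cells with no Cd3e, Cd3d or Cd3g UMI, for example, was also counted for contrasts between T cell kinds. The 958 is therefore no measure of how robust the values are. The log2 ratio of Bbc3 lay between -1.02 and -0.78 in CD8, -1.28 and -0.92 in conventional CD4, -0.54 and -0.33 in regulatory and -0.09 and 0.21 in Siglech cells. The cause of the changes below was not tested.

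With a fold of 0.3 the members past it numbered 2 in CD8, 3 in conventional CD4, 1 in regulatory and 3 in Siglech cells. The shares of all genes past it were 4.80%, 8.82%, 13.8% and 25.3%. Without Mki67 or Top2a cells they numbered 2 in CD8 (Bcl2a1d at 0.52 joined), beside 1.97% of genes, and 1 in regulatory cells (Bbc3, -0.54), beside 4.87%. In Siglech cells they numbered 2 with no minimum CPM (beside 4.67% of genes), 0 as a mean over cells (8.26%) and 2 with stricter gates (9.13%). In Siglech cells without Cd3 UMIs, chosen after seeing the data, they numbered 0 (13.9%). There the log2 ratio of Bcl2a1b was 0.30 from 3 and 4 UMIs, too few to give a direction. For shares of cells, Bcl2a1a and Bcl2a1c were counted along with the 10 members. Genes with a lower share in VISTA-KO, intervals apart, numbered 3 in conventional CD4 cells without thinning. In regulatory cells they numbered 2 at 4000 UMIs and 10 without thinning. Unthinned shares also follow depth, which differed in regulatory cells (medians of 8739 UMIs in WT and 5908 in VISTA-KO). The same count over all genes was not made.

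For conventional CD4 over CD8 cells, 1 member was called with stricter gates and 1 without Mki67 or Top2a cells (chosen after seeing the data). For regulatory over conventional CD4 cells, 1 was called with stricter gates, and for Tcf7 Pdcd1 cells 1 without the largest clonotypes (Bcl2l11, -0.51). With no replicate block, that is without pairing kinds by library, 1 was called for regulatory over conventional CD4 cells, 3 for the Il7r state and 5 for the Ccr7 state. In each library alone, with no test, 3 to 4 members passed the fold for regulatory over CD8, 0 to 0 for conventional CD4 over CD8, 2 to 2 for regulatory over conventional CD4 and 6 to 7 for Siglech over CD8 cells. For regulatory over conventional CD4 cells they were Bcl2 (-1.15) and Bcl2l11 (-0.56) in WT. In VISTA-KO they were Bcl2 (-1.22) and Bcl2a1d (-0.95), with Bcl2l11 at -0.35. For the counts in this paragraph the same count over all genes was not made, so they have no background share beside them.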
